A study of Homo sapiens with 49 samples.

Results

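The genes described here encode the eukaryotic translation initiation factors, the proteins that bring ribosomal subunits, initiator tRNA and mRNA together before protein synthesis starts. Members are all entries whose symbol starts with EIF and a digit, leaving out the EIF2AK kinases and hyphenated symbols, with a mean of at least 1 unnormalised FPKM (fragments per kilobase of transcript, scaled to the fragments sequenced in the library) over all libraries of an experiment. The rule kept 48 of 52 such symbols in each of 2 human neuroblastoma models, 47 of them in both and 49 in either, out of 23621 gene entries per model. Just inside the threshold lay EIF4EBP3 (mean 1.56 FPKM) in SHEP-21N cells and EIF4E3 (2.13 FPKM) in BE(2)-C cells. Just outside lay EIF4E3 (0.169 FPKM) in SHEP-21N cells and EIF3CL (0.107 FPKM) in BE(2)-C cells. EIF3IP1 and EIF4E1B were also outside in both models, and 1 further symbol is not reported here.

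SHEP-21N cells carry a TET-off MYCN transgene, so that doxycycline at 0.2 µg/ml shuts MYCN down. Cells were sampled at 0 h (2 libraries) and after 2, 4, 6, 8, 16 and 24 h (3 libraries at each time). BE(2)-C cells were engineered with a TET-on short hairpin RNA against TWIST1, turned on by doxycycline at 0.5 µg/ml. They were sampled untreated and after 3, 6, 12, 24 and 48 h, with 3 libraries per condition. Both are established cell lines grown in tetracycline-free serum, polyadenylated RNA was sequenced, and each model was compared only with its own untreated cells. Cells given doxycycline while lacking the transgene or hairpin were not analysed here. No label says that replicates were separate cultures, so each p-value measures the spread between these libraries, which may be technical. The 11 samples treated with DMSO or JQ1 were not analysed here.

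In initiation, eIF2 carries the initiator tRNA to the small ribosomal subunit in its GTP-bound form, and eIF2B recharges eIF2 with GTP. eIF3 is a large scaffold on the small subunit, eIF1, eIF1A and eIF5 govern scanning and start codon choice, and the eIF4F complex (the cap-binding eIF4E, the scaffold eIF4G and the helicase eIF4A) brings in capped mRNA. The eIF4E binding proteins compete with eIF4G for eIF4E until mTORC1 phosphorylates them. MYC family proteins bind DNA at E-boxes of sequence CACGTG, and genes of ribosome production and translation are well-known MYC targets.

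Since MYCN shutdown is compared in SHEP-21N cells, the 250 bases before each gene's start in RefSeq (build GRCh38.p14) were searched for CACGTG, which reads the same on both strands. Of the 49 members 41 had a promoter entry, and 11 of these (26.8%) held the motif. The same windows held it in 7.73% of 27305 genes in the table and in 11.6% of the 8531 genes tested in SHEP-21N cells that had an entry. Among members with an entry, 8 of 25 that were lower at 24 h on the spike-in scale had the motif (32.0%), against 3 of the other 15 members of SHEP-21N cells. A match describes the letters only and is neither a binding site nor a cause. EIF4EBP1, EIF3B, EIF5A and EIF2B5, which changed more at 24 h than any motif holder, were not among the 11, for lack of the motif or of an entry. EIF4B and EIF4EBP3 held it and were not lower. Windows of 6 members picked from the 11 are printed 5′ to 3′ on the gene's strand, with every CACGTG in capitals. They are genes of the eIF4F, eIF3 and eIF2B groups that were lower after shutdown, and EIF5A2, which was not.
EIF4E, chr4:98929153-98929252, minus strand: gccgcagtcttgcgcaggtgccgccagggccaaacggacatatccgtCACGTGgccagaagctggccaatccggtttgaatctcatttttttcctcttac
EIF4G1, chr3:184314415-184314514, plus strand: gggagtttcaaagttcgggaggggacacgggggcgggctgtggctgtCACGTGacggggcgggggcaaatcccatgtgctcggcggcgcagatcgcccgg
EIF4A3, chr17:80147197-80147296, minus strand: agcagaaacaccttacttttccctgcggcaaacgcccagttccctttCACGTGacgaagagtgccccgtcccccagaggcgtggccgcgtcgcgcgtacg
EIF3K, chr19:38619038-38619137, plus strand: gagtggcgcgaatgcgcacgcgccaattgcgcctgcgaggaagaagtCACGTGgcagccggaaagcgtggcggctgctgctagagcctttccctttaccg
EIF2B3, chr1:44986722-44986821, minus strand: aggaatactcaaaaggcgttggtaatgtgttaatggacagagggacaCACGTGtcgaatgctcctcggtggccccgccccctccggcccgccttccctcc
EIF5A2, chr3:170908747-170908846, minus strand: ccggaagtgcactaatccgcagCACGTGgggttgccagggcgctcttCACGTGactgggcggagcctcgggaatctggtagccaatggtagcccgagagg
The motif began 72 bases before the annotated start in EIF4E, 103 in EIF3K, 121 in EIF4A3, 144 in EIF4G1 and 179 in EIF2B3, and the pair in EIF5A2 began 187 and 162 bases before it. EIF4E and EIF4G1 each held a further copy in the searched window, not printed here.

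Values are given on 2 scales. The spike-in rescaled FPKM follow RNA against ERCC spike-ins added at cell lysis after cells had been counted, so they move with total RNA per cell. The unnormalised FPKM are relative to the other RNA of the same library. A member is called lower or higher where limma's moderated test on log2(FPKM + 1) gave a Benjamini-Hochberg adjusted p under 0.05 over all tested genes, 11867 in SHEP-21N and 11433 in BE(2)-C cells. Depth per library is unknown, since FPKM give no read numbers. In bulk RNA, fewer cells with a transcript and less transcript per cell cannot be told apart.

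The targeted genes followed the labels: MYCN stood at 723 and 855 rescaled FPKM at 0 h and at 17.3, 13.9 and 11.2 at 24 h in SHEP-21N cells. TWIST1 stood at 91.8, 70.3 and 82.0 without doxycycline and at 7.65, 11.2 and 4.60 at 48 h in BE(2)-C cells. SHEP-21N cells had 10 of 11 mesenchymal neuroblastoma markers at 1 FPKM or more and 3 of 11 adrenergic ones, with DBH and TH under 0.1 FPKM, and 2 of 5 epithelial markers (KRT8 and KRT18). BE(2)-C cells had all 11 adrenergic and 4 of 11 mesenchymal markers. Blood and glial lists each had at most 1 gene at that level. Their part in the results was not tested. Index sequences used at 8, 16 and 24 h in SHEP-21N cells were also used at 0, 2 and 4 h, and no label names the sequencing pools, so pool and time cannot be told apart when those times are compared with 0 h. Libraries numbered 0 to 2 are named below only where 1 library decides a value.

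At baseline the initiation factor genes covered a wide range. In SHEP-21N cells at 0 h the rescaled means ran from 1.56 FPKM for EIF4EBP3 to 1629 FPKM for EIF5A, with a median of 102 FPKM. EIF5A, which binds stalled ribosomes and carries the hypusine residue, was followed by the helicase EIF4A1 at 985 ± 137 (SD, n = 2) and the eIF3 subunit EIF3C at 599 ± 81.8 FPKM. EIF4E stood at 52.9 ± 6.17 FPKM, far below EIF4G1 at 316 ± 43.8 and EIF4EBP1 at 243 ± 34.7 FPKM. Of the 47 neighbouring pairs in this order, 15 had libraries that did not overlap. In BE(2)-C cells without doxycycline the range was 3.05 FPKM (EIF4E3) to 1338 FPKM (EIF5A), with a median of 126 FPKM, and 3 of 47 neighbouring pairs did not overlap. EIF4A1 (1194 ± 191, n = 3) did not differ from EIF5A beyond this spread, and EIF4E again stood low at 55.0 ± 16.7 FPKM. The 13 eIF3 subunit genes apart from EIF3CL, which encode parts of 1 complex, spanned 8.19-fold from lowest to highest mean in SHEP-21N cells at 0 h and 3.82-fold in BE(2)-C cells without doxycycline.

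After 24 h of MYCN shutdown, 28 of 48 initiation factor genes were lower and none was higher on the spike-in scale. Across all tested genes 32.4% were lower and 6.16% higher. The members' median log2 change was -0.61, against -0.31 for all genes. On unnormalised FPKM 31 members were lower and 3 higher (EIF2S3, EIF4G2 and EIF5A2), against 36.4% and 28.9% of all genes, with a median of -0.34 against -0.04. All 3 libraries at 24 h lay below both libraries at 0 h for 33 of 48 members on the spike-in scale, where 43.8% of all genes did so, and for 32 of 48 on unnormalised FPKM, against 42.1%. The spike-in count rests on single libraries. It was 15 without 24 h library 1 (23.3% of all genes lower in that fit), 10 without 24 h library 2 (16.2%) and 33 without 24 h library 0 (46.4%). Leaving out a 0 h library leaves 1 control, so only medians are given here for these fits. The range of counts over all 5 fits, which reaches lower, is given in the closing section. Without 0 h library 2 the median was -0.49 for members and -0.24 for all genes, and without 0 h library 1 -0.76 and -0.38. On unnormalised FPKM the same 31 members stayed lower with any 1 of the 24 h libraries left out. Without 0 h library 2 the unnormalised median was -0.31 for members and -0.04 for all genes, and without 0 h library 1 -0.40 and -0.04.

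**Figure D1:**
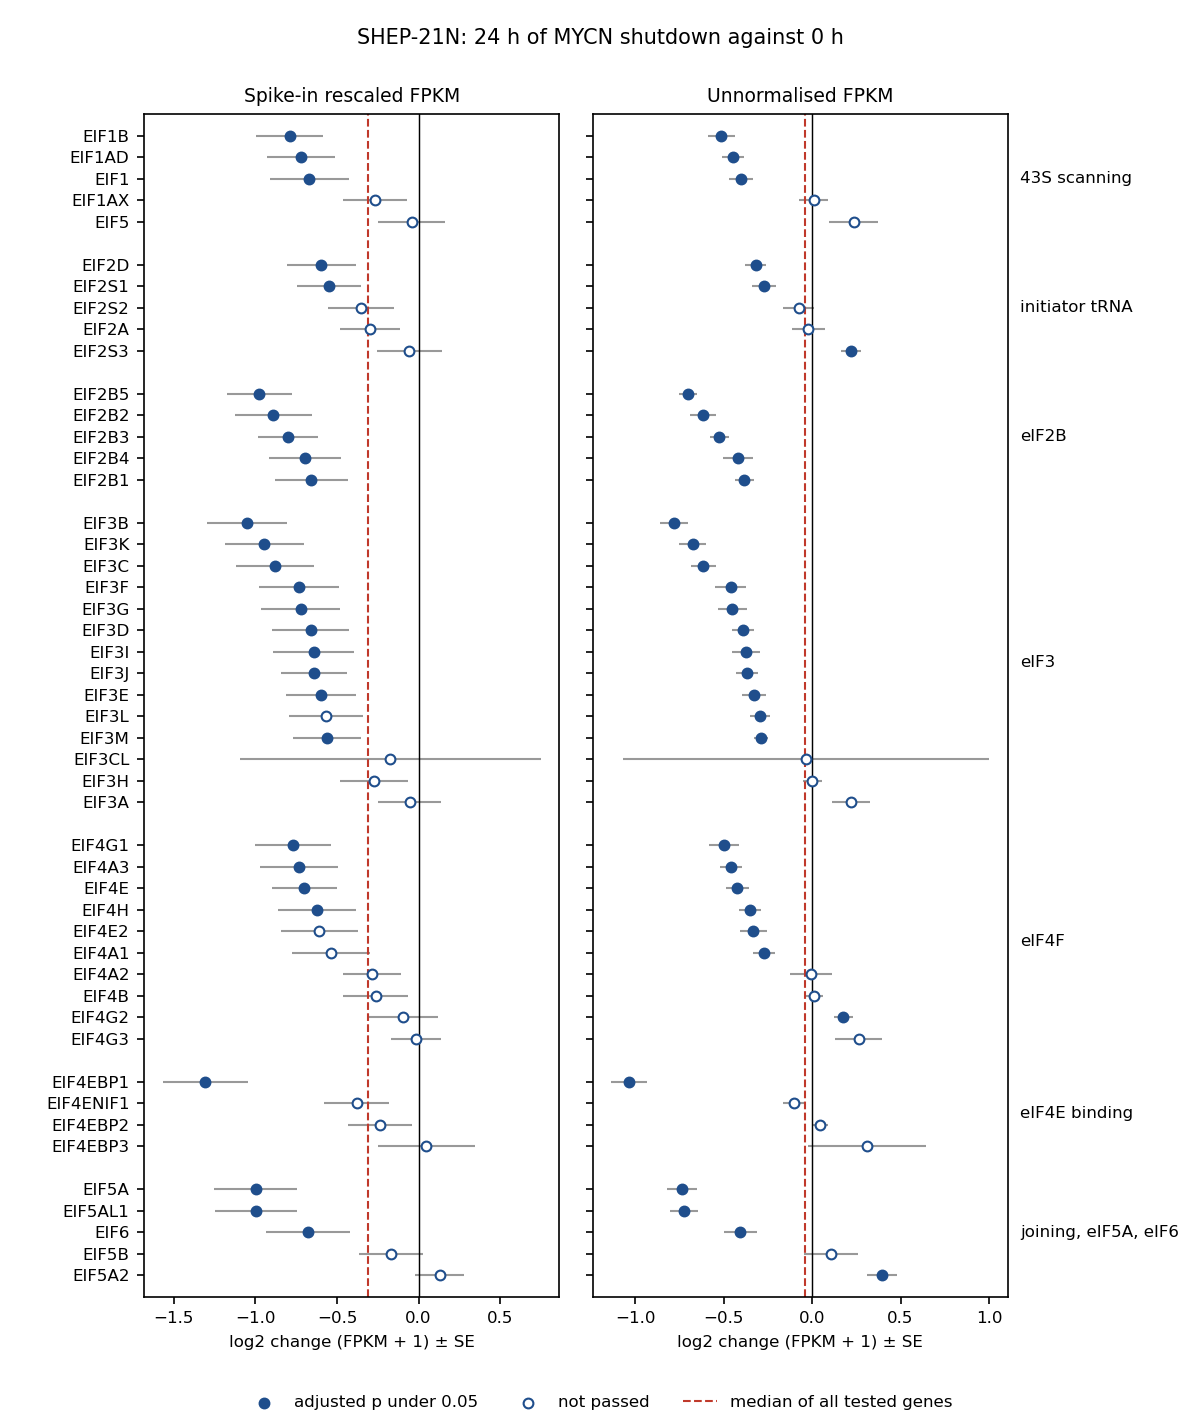
Log2 change (FPKM + 1) of each of 48 EIF genes at 24 h of MYCN shutdown against 0 h in SHEP-21N cells, with its standard error, on spike-in rescaled (left) and unnormalised FPKM (right), grouped by role. Filled points passed the adjusted p threshold, and the dashed line is the median of all tested genes, -0.31 on the left and -0.04 on the right. EIF4EBP1 lies furthest to the left on both scales and all 5 eIF2B genes are filled.

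The largest change of any member in either direction was in EIF4EBP1, which encodes the eIF4E binding protein 4E-BP1. Its rescaled level was 218 and 267 FPKM at 0 h and 128, 99.2 and 72.0 FPKM at 24 h, so all 3 late libraries lay below both controls. The log2 change of EIF4EBP1 was -1.31 (SE 0.260, limma adjusted p = 0.00147). Its lowest and highest values with 1 library left out were -1.50 and -1.09. No other member's call on the spike-in scale held in every such fit, though the fits without a 0 h library leave 1 control. On unnormalised FPKM EIF4EBP1 went from 216 and 232 to 115, 111 and 101 (-1.03, adjusted p = 3.62e-07). The other members of this role did not pass. EIF4EBP2, its paralog, was at 31.4 and 35.4 rescaled FPKM at 0 h and 35.3, 28.9 and 21.8 at 24 h (-0.24, adjusted p = 0.346), and at +0.04 on unnormalised FPKM. EIF4ENIF1, which carries eIF4E into the nucleus, was at 12.0 and 13.8 against 11.6, 9.95 and 7.77 rescaled FPKM (-0.38, adjusted p = 0.131). EIF4EBP3 stayed between 0.686 and 3.20 rescaled FPKM in these libraries. It lies beside ANKHD1, with which a readthrough transcript is known, so reads may be shared.

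The eIF4F group had 4 of 10 genes lower on the spike-in scale and none higher, near the 32.4% of all genes lower, with a median of -0.57. The 4 were the cap-binding EIF4E, the scaffold EIF4G1, the helicase EIF4A3 and the cofactor EIF4H, all lower on unnormalised FPKM too. EIF4E was at 48.5 and 57.3 rescaled FPKM at 0 h and 41.7, 29.7 and 26.6 at 24 h, without overlap (-0.70, SE 0.199, adjusted p = 0.0122). EIF4G1 went from 285 and 347 to 220, 196 and 144 rescaled FPKM, also without overlap (-0.77, SE 0.233, adjusted p = 0.0165). EIF4A3, the helicase of the exon junction complex, went from 153 and 178 to 130, 98.7 and 75.9 rescaled FPKM (-0.73, adjusted p = 0.0238). The spike-in calls of EIF4A3 and EIF4H were each present in 1 of 5 fits with 1 library left out. On unnormalised FPKM EIF4E2 and EIF4A1 were lower as well (-0.33 and -0.27), making 6 of 10. EIF4G2, an eIF4G relative that does not bind eIF4E, gave 363 and 381 rescaled FPKM against 440, 362 and 265, which overlap (-0.09, adjusted p = 0.744). On unnormalised FPKM it was higher, from 361 and 332 to 396, 405 and 373 (+0.18, adjusted p = 0.00961), a call lost without 1 library in 1 of 5 fits. EIF4A2, EIF4B and EIF4G3 did not pass on either scale (-0.29, -0.26 and -0.02 rescaled).

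All 5 eIF2B genes were lower on both scales, with rescaled log2 changes of -0.98 to -0.66. The spike-in call of EIF2B1 was present in 1 of 5 fits with 1 library left out. EIF2B5, which encodes the catalytic epsilon subunit, went from 41.9 and 51.5 rescaled FPKM at 0 h to 29.0, 22.7 and 18.8 at 24 h (-0.98, SE 0.199, adjusted p = 0.00171). EIF2B3 went from 29.2 and 32.9 to 21.1, 17.9 and 13.8 (-0.80, adjusted p = 0.00341), and EIF2B2 from 50.9 and 59.6 to 36.8, 31.2 and 21.7 rescaled FPKM (-0.89, adjusted p = 0.00822). In each of these 3 genes no late library reached a control library.

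The 3 subunits of eIF2, the substrate of eIF2B, were mixed, and EIF2A and EIF2D were counted with them. Of these genes 2 were lower on the spike-in scale, near the 32.4% of all genes lower. They were EIF2S1, the alpha subunit phosphorylated under stress, and EIF2D, which can deliver initiator tRNA independently of eIF2. EIF2S1 went from 44.6 and 46.5 rescaled FPKM to 39.97, 29.4 and 24.8 (-0.55, adjusted p = 0.0334), and EIF2D from 49.4 and 58.5 to 45.3, 34.5 and 27.9 (-0.60, adjusted p = 0.035). Each of these calls was present in 1 of 5 fits with 1 library left out. EIF2S2, the beta subunit, overlapped its controls, at 56.4 and 58.0 against 57.5, 44.6 and 34.5 rescaled FPKM (-0.35, adjusted p = 0.165). EIF2S3, the gamma subunit, was at 123 and 132 against 151, 127 and 96.1 rescaled FPKM (-0.06, adjusted p = 0.841). On unnormalised FPKM it was higher, at 121 and 115 against 137, 141 and 135 (+0.22, adjusted p = 0.00381), in 4 of 5 fits with 1 library left out. Human genomes hold a near-identical copy of EIF2S3, so its reads may be shared.

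Of 14 eIF3 genes 10 were lower and none higher on the spike-in scale, with a median of -0.64. EIF3B, which holds the scaffold together with EIF3A, showed the largest change, from 283 and 360 rescaled FPKM to 196, 157 and 118 (-1.05, SE 0.245, adjusted p = 0.004). EIF3K went from 338 and 424 to 256, 193 and 153 (-0.95, adjusted p = 0.00683), and EIF3C from 541 and 657 to 409, 332 and 248 rescaled FPKM (-0.88, adjusted p = 0.00922). These 3 genes also had the lowest changes in the complex on unnormalised FPKM (-0.78, -0.67 and -0.61), where EIF3L passed too and made 11 of 14. EIF3A, the largest subunit, was at 91.3 and 86.9 against 104, 87.8 and 68.8 rescaled FPKM, a full overlap (-0.06, adjusted p = 0.839). EIF3H was at -0.27 (adjusted p = 0.3) rescaled and at 0.00 unnormalised. EIF3CL, a near-identical copy of EIF3C, jumped between 0.0280 and 36.3 unnormalised FPKM, with 7.32, 7.61 and 36.3 at 4 h and unlike values among the libraries of 0, 16 and 24 h, so the division of reads between the copies is uncertain. Its listed level was at most 7.13% of the pair's sum.

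Among the scanning factors, EIF1 and its paralog EIF1B were lower on both scales, while EIF1AX and EIF5 did not pass. EIF1AD, grouped with them by name only, was lower on both scales as well. EIF1B went from 44.99 and 59.9 rescaled FPKM to 35.9, 30.7 and 23.6 (-0.79, adjusted p = 0.00773). EIF1AD, named for an eIF1A domain, went from 17.1 and 20.7 to 14, 11.4 and 8.23 rescaled FPKM (-0.72, adjusted p = 0.0135). EIF1 went from 415 and 508 to 377, 292 and 217 rescaled FPKM (-0.67, adjusted p = 0.0362). The spike-in call of EIF1 was present in 1 of 5 fits with 1 library left out. In all 3 genes the groups did not overlap. EIF1AX has a near-identical copy, so its reads may be shared. EIF5, which triggers GTP hydrolysis by eIF2, was at 40.6 and 36.8 against 48.2, 36.1 and 30.3 rescaled FPKM (-0.04, adjusted p = 0.885).

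Of the late-acting factors EIF5A, EIF5AL1 and EIF6 were lower on both scales. EIF5A, the most abundant member, went from 1456 and 1802 rescaled FPKM to 1058, 841 and 597 (-0.999, SE 0.256, adjusted p = 0.0069). EIF5AL1, from 124 and 159 to 92.7, 70.9 and 51.6 rescaled FPKM (-0.996, adjusted p = 0.00592), is nearly identical to EIF5A. Its unnormalised level kept to between 0.0836 and 0.0891 of that of EIF5A in all 20 libraries, so its values are not separate from those of EIF5A. EIF6, which keeps the large ribosomal subunit from joining early, went from 271 and 354 to 254, 197 and 145 rescaled FPKM (-0.68, adjusted p = 0.0458). Its call on the spike-in scale was present in 1 of 5 fits with 1 library left out. EIF5A2, the second eIF5A gene, was low throughout, at 2.33 and 2.22 against 3.10, 2.59 and 2.11 rescaled FPKM (+0.13, adjusted p = 0.514). On unnormalised FPKM it was higher, from 2.08 and 1.85 to 2.86, 2.93 and 2.92 (+0.40, adjusted p = 0.000798), and this was the only higher call present in all 5 fits with 1 library left out. The pseudocount of 1 FPKM understates the change of so low a gene. EIF5B, the GTPase of subunit joining, did not pass on either scale (-0.17 rescaled).

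The decline was gradual on unnormalised FPKM. Summed over the 48 members, the libraries gave 9104 and 9612 FPKM at 0 h, 9231 to 9422 at 2 h, 8281 to 9261 at 4 h, 8084 to 8585 at 6 h, 7803 to 8293 at 8 h, 7427 to 7708 at 16 h and 6766 to 7256 at 24 h. From 6 h on every library lay below both controls. The 4 most abundant genes (EIF5A, EIF4A1, EIF3C and EIF4H) made up 33.5% to 37.3% of the sum, and the other 44 genes alone went from 5767 and 6023 FPKM at 0 h to between 4499 and 4774 at 24 h. On the spike-in scale the sums spread more widely, 9166 and 11031 FPKM at 0 h and 4818 to 8057 at 24 h, all 3 libraries lay below both controls at 6 h as well, and libraries at 2, 4, 8 and 16 h overlapped them.

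**Figure D2:**
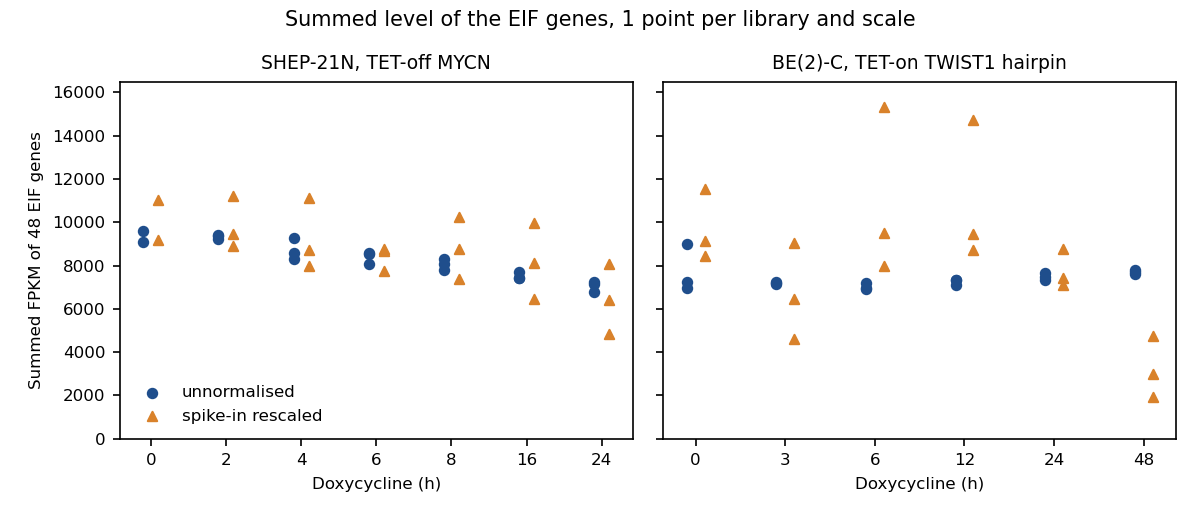
Summed FPKM of the 48 EIF genes of each model (y axis, linear) against hours of doxycycline (x axis, not to scale), with 1 circle per library for unnormalised and 1 triangle for spike-in rescaled FPKM. In SHEP-21N cells the circles go from 9104 and 9612 at 0 h to between 6766 and 7256 at 24 h. In BE(2)-C cells the circles at 48 h lie at 7618 to 7799, within the range without doxycycline, while the triangles fall to between 1943 and 4736.

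Gene by gene, lower calls on unnormalised FPKM became more frequent with time. At 2 h none of 48 passed in limma (2 at an unadjusted p under 0.05), against 0.236% of all genes higher and 0.345% lower. At 4 h 8 were lower and 3 higher (18.1% and 15.8% of all genes), at 6 h 16 and 8 (29.8% and 26.8%), at 8 h 24 and 6 (29.2% and 25.0%), and at 16 h 27 and 3 (27.5% and 23.8%). EIF4EBP1 was lower from 4 h on (-0.27, then -0.42, -0.61 and -0.85 at 6, 8 and 16 h). EIF4G1 was already at -0.47 at 6 h and ended at -0.50, whereas EIF5A went on from -0.29 at 6 h to -0.65 at 16 h and -0.74 at 24 h. Some members were higher in the middle of the course: EIF5 at +0.47 at 4 h and 6 h (adjusted p = 0.0193 and 0.00899), and EIF1AX and EIF2S2 at +0.33 each at 6 h (adjusted p = 0.00318 and 0.00423). None of these 3 passed at 16 h or 24 h. EIF5 libraries stood at 39.7 and 31.8 unnormalised FPKM at 0 h, 46.0, 43.9 and 60.7 at 6 h and 43.5, 40.4 and 42.2 at 24 h.

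On the spike-in scale no member passed in limma at 2, 4, 6 or 8 h (0, 2, 2 and 3 at an unadjusted p under 0.05). Of all genes 0.0506%, 0.0758%, 7.54% and 3.83% were lower at these times, and 0.00%, 0.00843%, 3.17% and 3.92% higher. At 16 h EIF4EBP1 alone passed (-0.87, adjusted p = 0.047), against 3.04% of all genes lower and 5.13% higher, and this call was lost without either 0 h library and without 16 h library 0 or 2. Comparing 24 h with 8 h leaves the 0 h libraries out of the difference, though not out of the spread shared over all times, and involves different index sequences. There 25 of 48 members were lower and none higher on unnormalised FPKM, against 19.2% and 12.9% of all genes, and 16 were lower in each of the 6 fits with 1 library left out. The lowest were EIF4EBP1 (-0.42), EIF1B (-0.37) and EIF3K (-0.36), and 4 of 5 eIF2B genes passed (EIF2B4 did not). On the spike-in scale none passed (26 at an unadjusted p under 0.05), with 1.33% of all genes lower and 0.228% higher. Without 24 h library 0, the library of that time with the highest sum, 34 members were lower. In that fit 35.9% of all genes were lower too, and 0.489% higher.

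Because every sample carries all members, ratios within a library do not depend on the spike-ins. The unnormalised EIF4EBP1 to EIF4E ratio was 4.62 on average at 0 h and 3.04 at 24 h, and the EIF4EBP1 to EIF4EBP2 ratio 7.34 and 3.45. The EIF3B to EIF3A ratio was 3.65 and 1.80, the EIF4G1 to EIF4G2 ratio 0.847 and 0.529, and the EIF2B5 to EIF2S1 ratio 1.024 and 0.751. In each of these 5 ratios the groups did not overlap, which gives an exact permutation p of 0.1, two-sided, the smallest that 2 against 3 libraries allow (0.229 after Benjamini-Hochberg adjustment over 16 ratios tested in both models). The upper gene of each of these 5 ratios was itself called lower in the same libraries, so the ratios are not separate evidence. The EIF4A1 to EIF4E ratio was 18.9 and 21.2, and the EIF4A1 to EIF4A2 ratio 22.9 and 19.1 (exact permutation p = 0.2 for each).

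**Figure D3:**
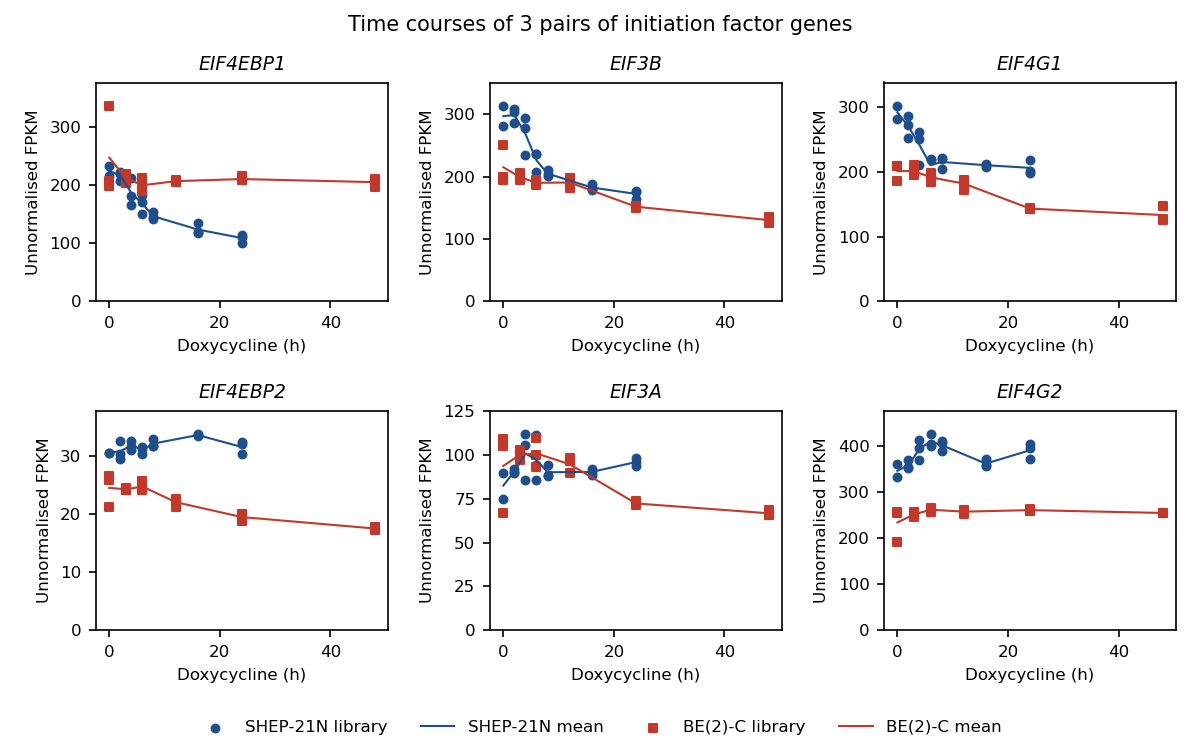
Unnormalised FPKM (y axis from 0) of 3 pairs of initiation factor genes against hours of doxycycline in SHEP-21N cells (circles) and BE(2)-C cells (squares), with 1 point per library and lines through the means. EIF4EBP1 goes from 216 and 232 to between 101 and 115 FPKM in SHEP-21N cells while EIF4EBP2 stays between 29.5 and 33.7. EIF4G1 ends at 198 to 219 FPKM in SHEP-21N and 126 to 147 in BE(2)-C cells.

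Genes that act with the initiation factors were followed from 3 lists, whose counts are read against the 32.4% of all genes lower and 6.16% higher on the spike-in scale. Of 27 tested partners and regulators, 8 were lower and 1 higher at 24 h on the spike-in scale, shares near those of all genes, with a median of -0.22. The lowest was DOHH, the enzyme that completes the hypusine of eIF5A (-1.29, adjusted p = 0.00104), followed by the poly(A)-binding PABPC4 (-0.995, adjusted p = 0.00361) and LARP1, which binds mRNAs of the translation machinery (-0.89, adjusted p = 0.00584). PDCD4, an inhibitor of eIF4A, was the higher one, from 3.93 to 4.77 rescaled FPKM at 0 h to 5.26 to 8.81 at 24 h (+0.56, adjusted p = 0.0179). On unnormalised FPKM 10 were lower and 10 higher, against 36.4% and 28.9% of all genes. Of 18 genes of the mTORC1 and MAP kinase inputs to eIF4F, 6 were lower and 1 higher, also near the shares of all genes. DDIT4, an inhibitor of mTORC1, was the higher one (+1.32, adjusted p = 0.000688), with 15.0 to 20.4 rescaled FPKM at 0 h and 35.8 to 59.8 at 24 h. RPTOR, the mTORC1 scaffold (-1.003, adjusted p = 0.00218), and AKT1S1, an inhibitory mTORC1 subunit (-1.01, adjusted p = 0.00499), were lower. Of 23 elongation and termination factors 14 were lower and none higher, with a median of -0.58, close to that of the initiation factors. EEFSEC, the selenocysteine elongation factor (-1.20, adjusted p = 0.00119), and EEF1E1, an elongation factor by name only (-1.16, adjusted p = 0.00175), were the lowest.

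In BE(2)-C cells 48 h after hairpin induction, all 48 initiation factor genes were lower on the spike-in scale, as were 93.3% of all tested genes (0.131% were higher). For 46 of them all 3 late libraries lay below all 3 controls, against 78.7% of all genes. The members' median was -1.62, against -1.36 for all genes. EIF5A2 had the smallest change (-0.83, adjusted p = 0.0174) and EIF3B the largest (-2.36, adjusted p = 8.66e-06). With 1 library left out 45 to 48 members passed. With nearly all genes lower, this count says little about the initiation factors themselves. On unnormalised FPKM 11 members were lower and 10 higher (21.3% and 18.1% of all genes), and the members' median was -0.01 against 0.02. The library without doxycycline numbered 1 stood apart, with a summed level of 8975 unnormalised FPKM against 7229 and 6967 in the other two. Without it 21 members were higher in place of 10, while of all genes 27.7% were higher in place of 18.1% and 28.3% lower in place of 21.3%. Of the 11 lower calls 7, and of the 10 higher calls 8, were present in each of the 6 fits with 1 library left out.

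**Figure D4:**
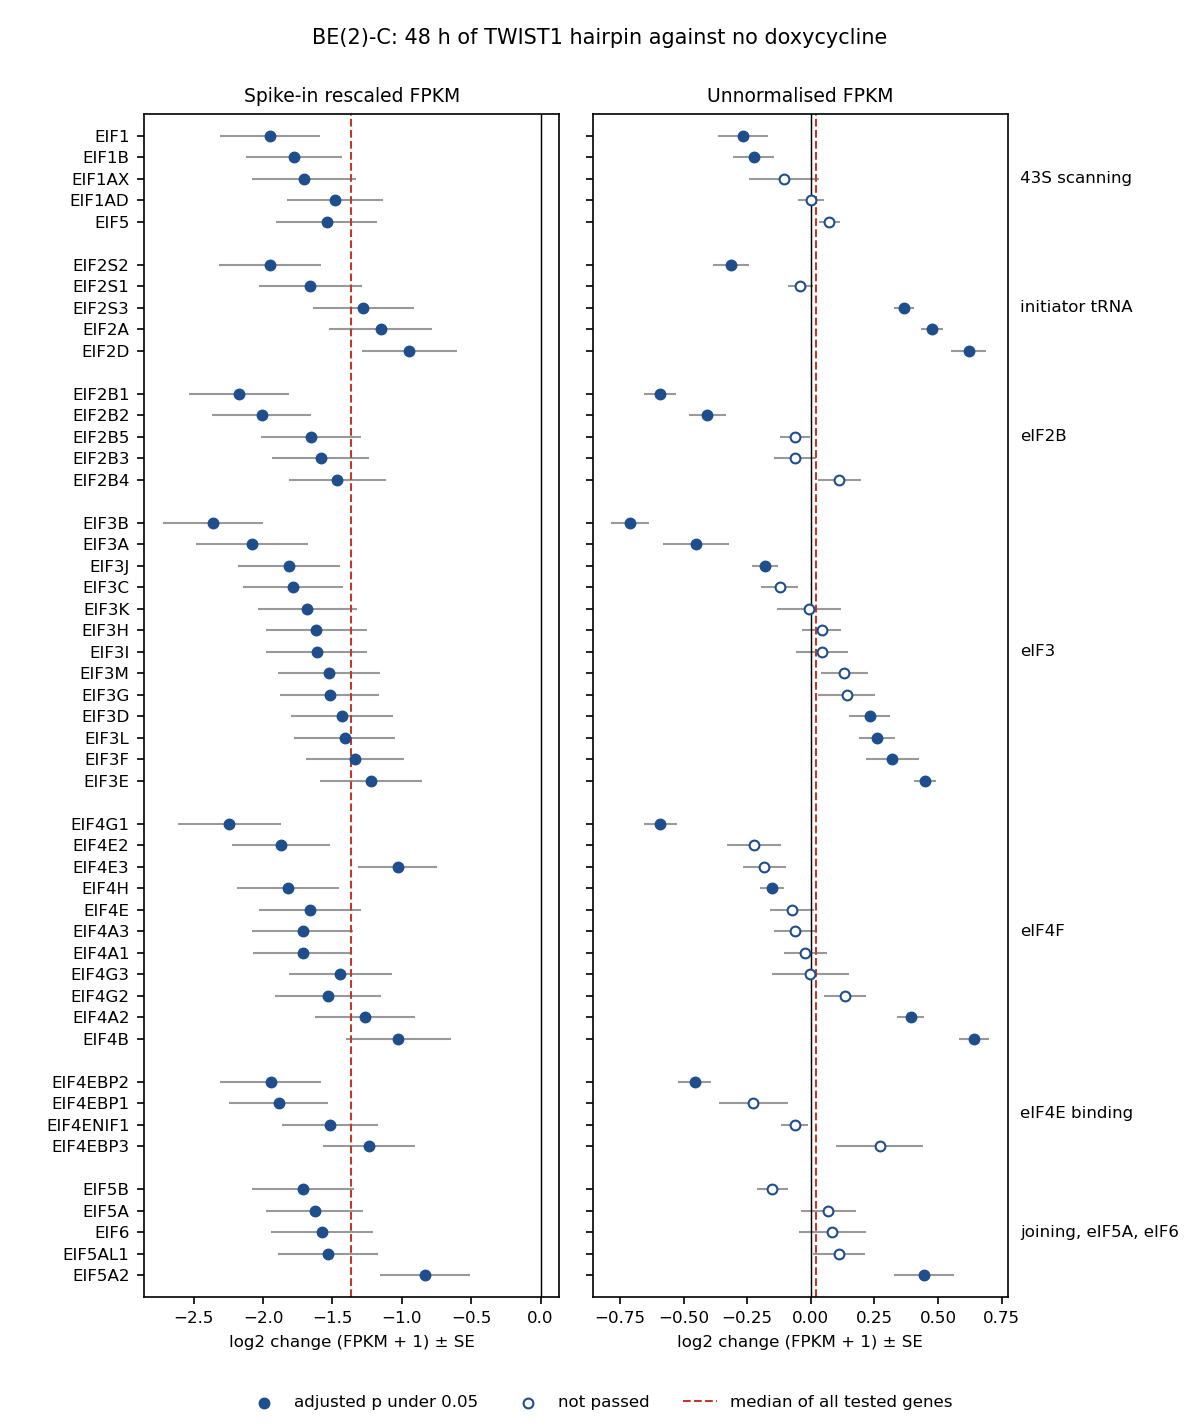
Log2 change (FPKM + 1) of each of 48 EIF genes at 48 h of the TWIST1 hairpin against no doxycycline in BE(2)-C cells, with its standard error, on spike-in rescaled (left) and unnormalised FPKM (right), grouped by role. Filled points passed the adjusted p threshold, and the dashed line is the median of all tested genes, -1.36 on the left and 0.02 on the right. All points are filled and below 0 on the left, while on the right EIF3B is lowest and EIF4B highest.

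The eIF3 and eIF4F genes parted on unnormalised FPKM. EIF3B was at 199, 251 and 196 unnormalised FPKM without doxycycline and 127, 129 and 136 at 48 h, without overlap (-0.71, SE 0.0743, adjusted p = 2.99e-06). On the spike-in scale EIF3B went from 317, 236 and 257 to 49.7, 78.9 and 34.4 FPKM. EIF3A was at 109, 66.9 and 105 against 65.7, 68.4 and 66.0 unnormalised FPKM (-0.45, adjusted p = 0.0119). The low control of EIF3A is library 1, and the call was absent from 2 of 6 fits with 1 library left out. EIF3J was lower too (-0.18, adjusted p = 0.0113). EIF3C was at 210, 253 and 199 against 196, 198 and 211 unnormalised FPKM, which overlap (-0.12, adjusted p = 0.199). In the same complex EIF3E (+0.45, adjusted p = 1.59e-06), EIF3F (+0.32), EIF3L (+0.26) and EIF3D (+0.23) were higher, though every one of them was lower on the spike-in scale (-1.22 to -1.43). EIF3E went from 251, 263 and 237 to 340, 346 and 339 unnormalised FPKM, and its libraries did not overlap. EIF3F and EIF3D passed in only 2 of 6 fits with 1 library left out.

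EIF4G1 went from 209, 186 and 210 unnormalised FPKM to 128, 126 and 147 (-0.59, SE 0.0652, adjusted p = 4.88e-06), and EIF4G2 was at 255, 191 and 256 against 254, 255 and 255 (+0.13, adjusted p = 0.204). The EIF4G1 to EIF4G2 ratio was 0.871 without doxycycline and 0.525 at 48 h, without overlap (exact permutation p = 0.1, two-sided, the smallest that 3 against 3 allow, 0.229 after adjustment over the 16 ratios). The EIF4A1 to EIF4A2 ratio, 7.14 and 5.30, gave the same p. The other ratios compared in SHEP-21N cells did not separate here: EIF3B to EIF3A was 2.48 and 1.96 (exact p = 1.0) and EIF2B5 to EIF2S1 0.702 and 0.689 (exact p = 0.9). EIF4EBP1 to EIF4E was 5.95 and 5.12 (exact p = 1.0) and EIF4EBP1 to EIF4EBP2 10.5 and 11.7 (exact p = 0.4). Control libraries 0, 1 and 2 gave EIF3B to EIF3A ratios of 1.82, 3.75 and 1.86, against 1.93, 1.89 and 2.05 at 48 h. EIF4EBP1 to EIF4E was 4.75, 8.65 and 4.44 against 5.04, 4.83 and 5.49. EIF4EBP1 to EIF4EBP2 was 8.02, 15.9 and 7.48 against 12.1, 12.0 and 11.1. In each of these ratios control library 1 lies above every late library and the other controls lie below all of them. EIF4B, a cofactor of the helicase, had the largest higher call, from 167, 138 and 160 to 241, 247 and 238 unnormalised FPKM (+0.64, adjusted p = 7.59e-07, against -1.02 on the spike-in scale). EIF4A2 was higher as well (+0.39, adjusted p = 4.51e-05, against -1.27), and EIF4A1 was not (-0.02). Within the eIF4F group EIF4E2 and EIF4H had the smallest adjusted p after EIF4G1 on the spike-in scale (-1.87 and -1.82). EIF4E2 was at 111, 153 and 107 against 98.4, 102 and 113 unnormalised FPKM, which overlap. EIF4H was at 276, 301 and 271 against 253, 258 and 252, which do not (-0.15, adjusted p = 0.0169, in 4 of 6 fits with 1 library left out).

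Of the eIF4E binding proteins, EIF4EBP2 was lower on both scales and EIF4EBP1 on the spike-in scale only. EIF4EBP2 went from 25.8, 21.1 and 26.5 unnormalised FPKM to 17.2, 17.6 and 17.7, without overlap (-0.46, SE 0.0655, adjusted p = 6.15e-05). EIF4EBP1 was at 207, 336 and 199 against 207, 211 and 197 (-0.23, adjusted p = 0.203). Its high control is library 1. EIF4ENIF1 was at 16.1, 14.8 and 15.8 against 13.8, 15.0 and 15.8 unnormalised FPKM (-0.06, adjusted p = 0.37).

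Of the eIF2B genes EIF2B1 and EIF2B2 were lower on unnormalised FPKM and the other 3 did not pass. EIF2B1, the regulatory alpha subunit, went from 53.4, 62.4 and 51.3 to 35.5, 37.5 and 36.4 unnormalised FPKM (-0.59, SE 0.0634, adjusted p = 3.63e-06). It was the earliest call among members in these cells, at -0.42 at 12 h (adjusted p = 0.0011), and stood at -0.59 at 24 h. EIF2B2 went from 61.0, 75.1 and 57.6 to 47.4, 49.9 and 47.2 (-0.41, adjusted p = 0.000418). EIF2B5 was at 41.7, 49.6 and 41.9 against 43.3, 42.7 and 41.1 unnormalised FPKM, which overlap (-0.06, adjusted p = 0.42).

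The initiator tRNA factors divided. EIF2D went from 22.5, 25.5 and 21.2 to 37.4, 35.9 and 34.4 unnormalised FPKM (+0.62, adjusted p = 5.27e-06). EIF2A, which like EIF2D acts outside the eIF2 route, went from 55.3, 51.2 and 53.6 to 75.6, 76.7 and 71.2 (+0.47, adjusted p = 6.75e-07). EIF2S3 went from 80.4, 76.3 and 83.4 to 103, 102 and 105 (+0.37, adjusted p = 3.98e-06). No library at 48 h overlapped a control in these 3 genes, and all 3 were lower on the spike-in scale (-0.95, -1.15 and -1.28). EIF2S2 moved the other way, from 95.8, 114 and 90.8 to 78.5, 81.7 and 79.9 (-0.31, adjusted p = 0.00305). EIF2S1 was at 63.9, 63.7 and 62.3 against 62.1, 64.3 and 58.1 unnormalised FPKM (-0.04, adjusted p = 0.54).

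EIF1 and EIF1B were lower on unnormalised FPKM, at -0.27 (adjusted p = 0.0418) and -0.22 (adjusted p = 0.0398), but passed in only 2 and 1 of 6 fits with 1 library left out. EIF1 was at 495, 685 and 483 against 444, 456 and 464 unnormalised FPKM. EIF1B was at 33.7, 39.5 and 30.2 against 27.5, 29.8 and 30.3, where 1 late library reached the lowest control. EIF1AX was at 55.8, 46.9 and 56.6 against 51.3, 51.3 and 45.04 (-0.11, adjusted p = 0.569). EIF5A, EIF5B and EIF6 did not pass (+0.07, -0.15 and +0.08). EIF5A stood at 951, 1383 and 911 against 1109, 1143 and 1090 unnormalised FPKM, where library 1 exceeds all and the other two controls lie below all late libraries. EIF6 showed the same order, at 153, 240 and 141 against 184, 193 and 175, and EIF5B was at 34.3, 33.3 and 33.9 against 29.6, 30.1 and 31.4. EIF5A2 was higher, from 5.62, 4.14 and 5.56 to 7.31, 7.32 and 7.15 unnormalised FPKM (+0.44, adjusted p = 0.0076).

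At the earlier times in BE(2)-C cells, 13 members passed on unnormalised FPKM at 24 h and at most 1 before that. On the spike-in scale none passed in limma at 3, 6, 12 or 24 h (0, 0, 0 and 3 at an unadjusted p under 0.05), where 0.0175%, 0.0175%, 0.0262% and 0.586% of all genes were lower and 0.0175% were higher at each time. On unnormalised FPKM none passed at 3 h or 6 h (3 and 6 at an unadjusted p under 0.05). Of all genes 0.0175% and 0.472% were lower at these times, and 0.00% and 0.00875% higher. EIF2B1 alone passed at 12 h, against 3.33% of all genes lower and 0.752% higher. At 24 h 6 members were lower and 7 higher, against 13.6% and 9.55%. Those lower at 24 h were EIF2B1, EIF4G1 (-0.48), EIF3B (-0.49), EIF4EBP2 (-0.31), EIF2B2 (-0.28) and EIF2S2 (-0.25). Those higher were EIF4B (+0.36), EIF5A2 (+0.34), EIF2A (+0.32), EIF2D (+0.30), EIF4A2 (+0.24), EIF3E (+0.23) and EIF2S3 (+0.13). The haemoglobin gene HBB reached 46.9 rescaled FPKM in 1 library at 3 h and at most 0.282 at every other time. No member was called at 3 h, though the 3 h libraries enter the spread that the fit shares over all times.

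The same lists were counted in BE(2)-C cells, where 21.3% of all genes were lower and 18.1% higher at 48 h on unnormalised FPKM. On that scale 6 of 27 partners and regulators were lower and 10 higher, and of 18 mTORC1 and MAP kinase inputs 3 were lower and 5 higher. All tested genes of these lists were lower on the spike-in scale. On unnormalised FPKM, the scale of the rest of this paragraph, the lowest of the mTORC1 and MAP kinase inputs was AKT1S1 (-1.44, adjusted p = 2.1e-08). Next came LAMTOR1, part of the lysosomal anchor of mTORC1 (-0.998, adjusted p = 3.61e-06). Of 23 elongation and termination factors 2 were lower (GSPT1 and GSPT2, the release factor eRF3 genes) and 11 higher, EEF2 (+0.47) and EEF1A1 (+0.46) among them. DDIT4 was not called on unnormalised FPKM (-0.10, adjusted p = 0.44).

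Set side by side on unnormalised FPKM, the 47 members present in both models gave 15 genes that passed in both, 19 in SHEP-21N cells alone, 6 in BE(2)-C cells alone and 7 in neither. These models use separate control libraries, and the difference between them was not tested. Lower in both were 8 genes: EIF1, EIF1B, EIF2B1, EIF2B2, EIF3B, EIF3J, EIF4G1 and EIF4H. They were 17.0% of the 47 members, against 10.5% of the 10298 genes tested in both models. Of the members lower in SHEP-21N cells they were 8 of 31, against 1086 of 4012 for all genes. Of the members lower in BE(2)-C cells they were 8 of 11, against 1086 of 2192. EIF2S3 and EIF5A2 were higher in both (4.26% of members, 5.42% of all genes). EIF2D, EIF3D, EIF3E, EIF3F and EIF3L were lower in SHEP-21N and higher in BE(2)-C cells (10.6% of members, 6.00% of all genes). No member showed the reverse, as 4.39% of all genes did, but only 3 members were higher in SHEP-21N cells and so could show it. Of all genes higher there, 452 of 2811 showed the reverse. Across the 47 genes Pearson's r of the changes was 0.311 and Spearman's rho 0.304, and across all genes tested in both 0.0616 and 0.192. These are descriptions across genes, which are not independent replicates.

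**Figure D5:**
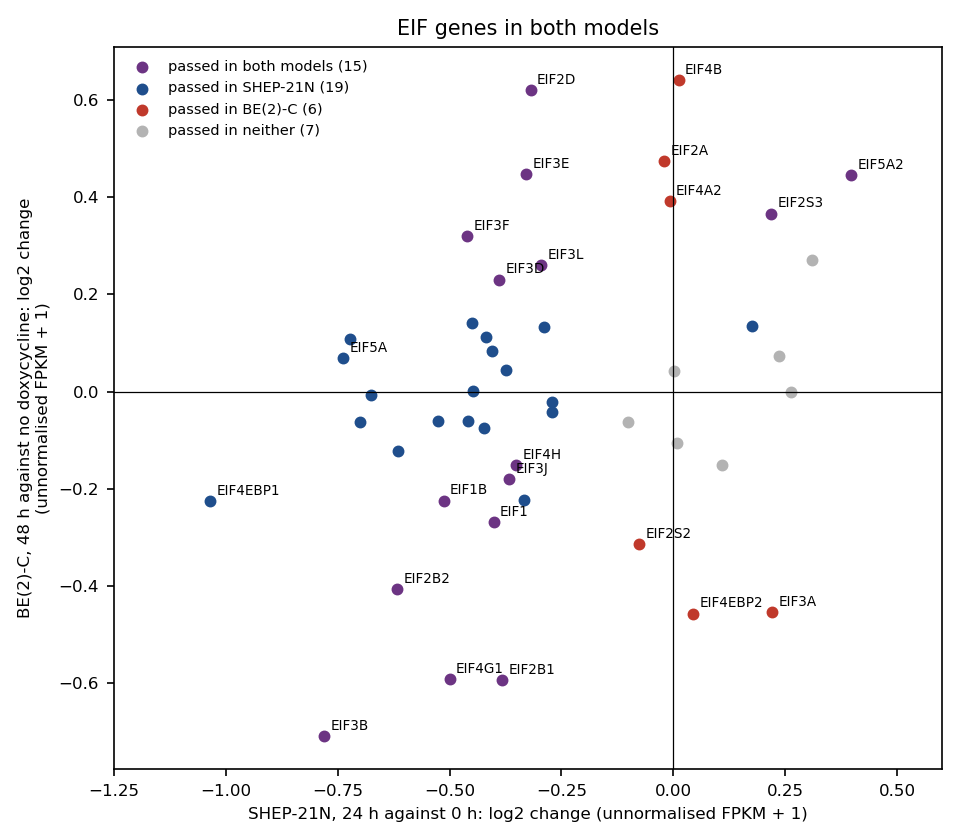
Log2 change (unnormalised FPKM + 1) of 47 EIF genes in SHEP-21N cells at 24 h (x axis) and BE(2)-C cells at 48 h (y axis), 1 point per gene, coloured by the model in which it passed. EIF3B and EIF4G1 lie at the lower left, EIF5A2 and EIF2S3 at the upper right, and EIF4EBP1 at -1.03 and -0.23.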

How the data were processed

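The members and gene lists were chosen with earlier results of these data known. The submitters' processing notes name HISAT, Cufflinks 2.0.0 and build hg19. For each model the authors deposited an FPKM table without and an FPKM table with rescaling to ERCC spike-ins, whose method no source used here gives. SHEP-21N had 20 and BE(2)-C 18 libraries, and columns were matched to groups by name. Per the labels' protocols cells were counted first and libraries were stranded. Spike-in sums were 32692 to 36589 FPKM in the rescaled and 15455 to 140361 in the unnormalised tables. Genes averaging at least 1 unnormalised FPKM were tested in R 4.3.3 with limma 3.58.1 (moderated variances, intensity trend, 1 mean per time point, log2(FPKM + 1)), after a test on simulated data. Python 3.11.15 with pandas 2.3.3 made the other tables. Values of every library are given for the targeted gene, for up to 3 members per role with the smallest adjusted p at the latest time, and for members called against the main direction; others are summarised or named with their change. Levels compare genes per transcript length. Alternatives were unnormalised and median-centred FPKM, a pseudocount of 0.1, other filters, a replicate block, no trend, no near-identical copies and each library left out. Same-numbered libraries did not pair: median correlation of their deviations was -0.02 and 0.01.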

Additional observations from a re-analysis of the deposited data

How the results depend on the processing

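Calls depended on the scale and, in SHEP-21N cells on the spike-in scale, on single libraries. On unnormalised FPKM the members lower in SHEP-21N cells numbered 8, 16, 24, 27 and 31 at 4, 6, 8, 16 and 24 h (6, 14, 20, 27 and 31 median centred), and those higher 3, 8, 6, 3 and 3 (3, 11, 6, 3 and 4 median centred). For 24 h against 8 h, 25 and 22 were lower. In BE(2)-C cells 1, 6 and 11 were lower at 12, 24 and 48 h (1, 5 and 8 median centred), and 7 and 10 were higher at 24 and 48 h (8 and 9 median centred). The call at 16 h in SHEP-21N cells fell to 0 with no filter, with a filter of 5 FPKM and with the replicate block.

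With 1 library left out, members lower at 24 h in SHEP-21N cells ran from 1 to 33, at 16 h from 0 to 2 and for 24 h against 8 h from 0 to 34, with 0 to 1 higher at 16 h. In a set of fits added after the data were seen, leaving out each library on unnormalised FPKM gave 1 to 5 higher at 24 h, 16 to 24 lower and 0 to 1 higher for 24 h against 8 h, and 8 to 21 higher at 48 h in BE(2)-C cells. All genes moved with these fits too. Without 24 h library 0 on the spike-in scale, 46.4% of all genes were lower at 24 h and 35.9% for 24 h against 8 h. Without untreated BE(2)-C library 1 on unnormalised FPKM, 27.7% of all genes were higher at 48 h. The replicate block gave 22 members lower at 24 h in SHEP-21N cells and no filter gave 19, and the pairing by library number is a number only.

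Of 48 members, 10 at 24 h in SHEP-21N and 22 at 48 h in BE(2)-C cells were below 0 on the spike-in scale and above 0 on unnormalised FPKM. Among the genes refitted under every alternative, these were (values on unnormalised and median-centred FPKM) EIF2S3 (0.37 and 0.38), EIF5A (0.069 and 0.0783) and EIF6 (0.0833 and 0.0926) at 48 h in BE(2)-C cells, and EIF4EBP2 (0.0442 and 0.0656) at 24 h in SHEP-21N cells. An alternative without EIF2C symbols could not be run, as the tables use other names for those genes. Without read numbers, counting error cannot be told from replicate spread.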
